A study of Homo sapiens with 4 samples.

Results

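The genes described here carry glucose into the cell, break it down to pyruvate and lactate, divert it into the pentose phosphate pathway, or control the entry of pyruvate into mitochondria. Of 36 genes chosen by name, 33 had at least 1 probe with a value on all 4 arrays, out of 13446 such genes in the series. PFKFB2 had probes but none with a value on every array, and SLC16A1 and SLC16A3 have no expression value here. The 33 genes were read from 54 probes, with 1 probe for 19 genes and 2 to 4 probes for 14.

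RC-K8 is an established line of diffuse large B-cell lymphoma whose cells undergo apoptosis when exposed to interleukin-21 (IL-21), a cytokine made by T cells. RC-K8-R is a single resistant subline that was raised from it by 10 weeks of culture in increasing IL-21. The 4 groups were RC-K8 untreated, RC-K8 with IL-21 at 100 ng/mL for 6 h, RC-K8-R untreated, and RC-K8-R with the same IL-21 treatment. Each group was 1 culture on 1 two-colour array, hybridised against a common human reference RNA. No spread between cultures could therefore be estimated, no test was run, and every difference below is between single arrays. Where a gene had several probes, the SD between them is given; it says nothing of how cultures vary.

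Glucose enters through transporters of the SLC2A family and is trapped by hexokinases, after which glycolysis yields ATP, pyruvate and, through lactate dehydrogenase, lactate. The pentose phosphate pathway branches off after the hexokinase step and supplies NADPH and ribose for nucleotides. Lymphocytes that are driven to grow raise glycolysis, and the transcription factor MYC is a known regulator of several of these genes, which it binds at the E-box letters CACGTG.

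A level below is the log2 ratio of sample to reference RNA after each array was centred on its median, and a difference is that of 2 such levels for the same probes. Genes were counted as different at 2-fold, an absolute log2 difference of 1. The platform names are probe annotations that can be old. Over all probes the SD of the ratios was 1.26 and 1.31 for RC-K8 but wider, 1.52 and 1.56, for RC-K8-R, so genes far from the reference lay further out in RC-K8-R. Markers of B cells had median levels of 1.54 to 2.07 on the 4 arrays, those of hepatocytes -6.20 to -5.56 and those of T and NK cells -3.18 to -1.76. Myeloid markers had median levels of 0.22 and 0.34 for the parental line and -0.51 and -0.44 for the resistant one. These levels are ratios to the reference and do not rank cell types.

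With IL-21, 3 genes of the pathway were at least 2-fold higher and 1 was at least 2-fold lower in RC-K8: HK2, ENO1 and LDHA were higher, and PDK2 was lower. Their promoters are shown because these 4 genes were past the 2-fold limit in RC-K8, with any CACGTG in capitals. Each is the 300 bases from 250 before to 50 after an annotated start, read 5′ to 3′ along the gene's strand, from RefSeq on GRCh38.p14. The windows are chr2:74834920-74835219 (plus strand) for HK2, chr1:8878637-8878936 (minus strand) for ENO1, chr11:18394313-18394612 (plus strand) for LDHA and chr17:50095101-50095400 (plus strand) for PDK2. Where a gene had several annotated starts, the window with the most matches was taken.
HK2: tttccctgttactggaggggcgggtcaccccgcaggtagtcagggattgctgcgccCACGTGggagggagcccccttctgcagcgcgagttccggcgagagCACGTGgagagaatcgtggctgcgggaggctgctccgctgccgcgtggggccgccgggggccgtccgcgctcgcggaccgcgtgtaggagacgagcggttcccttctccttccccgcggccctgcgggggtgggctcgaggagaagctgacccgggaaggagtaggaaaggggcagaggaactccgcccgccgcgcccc
ENO1: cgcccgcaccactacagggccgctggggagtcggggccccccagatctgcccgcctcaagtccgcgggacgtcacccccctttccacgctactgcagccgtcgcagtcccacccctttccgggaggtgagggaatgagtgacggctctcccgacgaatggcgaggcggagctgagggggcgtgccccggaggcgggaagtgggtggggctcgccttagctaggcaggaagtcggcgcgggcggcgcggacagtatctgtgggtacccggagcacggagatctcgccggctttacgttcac
LDHA: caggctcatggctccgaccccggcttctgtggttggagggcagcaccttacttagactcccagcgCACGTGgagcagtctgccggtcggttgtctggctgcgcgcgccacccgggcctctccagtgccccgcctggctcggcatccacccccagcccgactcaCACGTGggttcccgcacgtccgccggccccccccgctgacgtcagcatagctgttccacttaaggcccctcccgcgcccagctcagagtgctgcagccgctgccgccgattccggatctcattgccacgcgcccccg
PDK2: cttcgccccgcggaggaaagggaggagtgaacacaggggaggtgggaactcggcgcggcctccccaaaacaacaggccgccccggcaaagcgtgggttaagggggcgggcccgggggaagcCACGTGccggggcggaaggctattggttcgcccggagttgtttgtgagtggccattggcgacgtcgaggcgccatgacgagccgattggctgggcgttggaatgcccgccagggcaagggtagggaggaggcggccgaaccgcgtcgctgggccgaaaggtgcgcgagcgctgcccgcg
The HK2 window held CACGTG at 2 places, 194 and 149 bases before the start, and the other HK2 window held none. LDHA likewise had 2 in 1 of its 2 windows, 185 and 87 bases before the start. PDK2, which was lower, had 1, at 129 bases before the start, in 1 of its 3 windows, and the single ENO1 window had no match. The letters read the same on both strands. Windows were matched for 33 of the 36 listed genes, among them SLC16A3, which has no expression value here; SLC2A3, PFKFB2 and SLC16A1 are not among them. The letters were found in 8 of these 63 windows (12.7%), against 7.26% of all 35116 windows, which include those of noncoding genes. Counted by gene, they were in any window of 8 of the 33 (24.2%), against 8.77% of 27305 genes. A gene with more windows has more places for a match, so the shares by gene are not corrected for that. The other members with a match were PFKFB3, ALDOA, ALDOC, GAPDH and PDHB, none of which was 2-fold different in RC-K8. The core ACGTG, which CACGTG contains, was found on either strand in 36.5% of the listed genes' windows and 21.4% of all. By gene, these shares were 57.6% and 24.9%. These matches are descriptions of the letters and not measurements of binding.

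**Figure D1:**
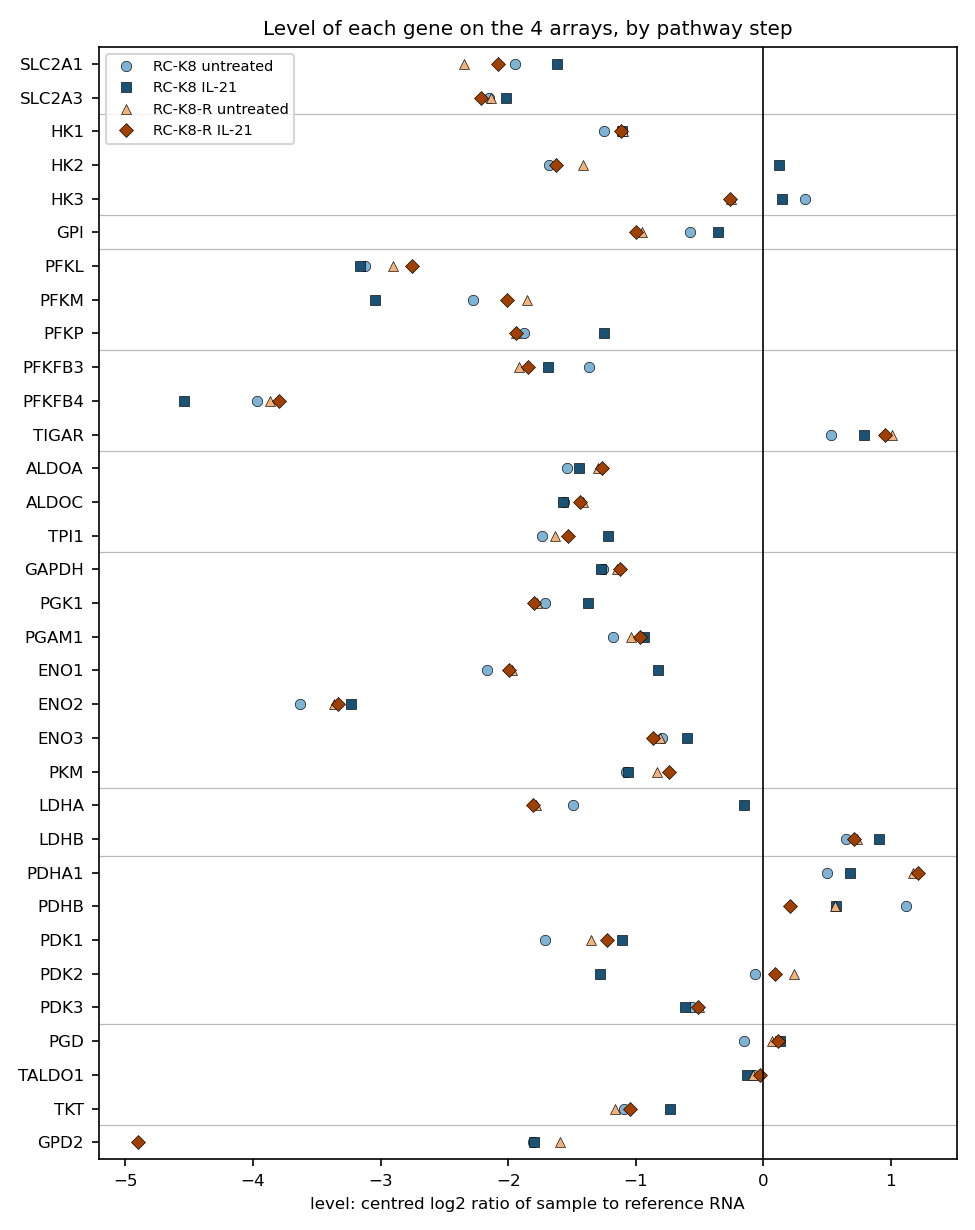
The plot gives the level of each of the 33 genes (vertical axis, grouped by pathway step between grey lines) on the 4 arrays, as the centred log2 ratio of sample to reference RNA (horizontal axis); each point is 1 array. Treated RC-K8 stands to the right of the other 3 arrays for HK2, ENO1 and LDHA, and treated RC-K8-R stands far to the left for GPD2.

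Of the 33 genes, 28 (84.8%) had a mean level below 0, as did 53.0% of all genes. On every array 25 were below it, a share that was not counted over all genes. The median of the mean levels was -1.20, against -0.06 for all genes. A ratio to the reference does not rank genes by abundance, so levels are compared between arrays only. The genes above 0 on all 4 arrays were TIGAR, LDHB, PDHA1 and PDHB. Of the 33 genes, 16 had their highest level on the treated RC-K8 array, where 24.8% of all genes had theirs, and 3 had it on the untreated RC-K8 array, where 28.9% of all genes had theirs.

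The first question was how the pathway differed after IL-21 in the sensitive line. The 3 genes that were 2-fold higher stand beside 1.44% of all genes (193 of 13446), and the 1 that was lower beside 1.66%. The median difference of the 33 genes was 0.18, against -0.04 over all genes, and 22 (66.7%) lay above 0, as did 45.2% of all genes. Within 0.5 on the log2 scale lay 23 of the 33, a share that was not counted over all genes. The gene nearest the 2-fold limit from inside was PDK2 (-1.21 on the log2 scale), and the nearest from outside was PFKM (-0.76).

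Glucose transporters were close on the RC-K8 arrays. SLC2A1, which encodes the widely expressed transporter GLUT1, was at -1.95 untreated and -1.62 with IL-21 in RC-K8, and at -2.35 and -2.08 in RC-K8-R. It was therefore 0.33 and 0.26 higher with IL-21 in the 2 lines, from 1 probe. SLC2A3, the gene of the high-affinity transporter GLUT3, was at -2.15, -2.02, -2.13 and -2.21 in the same order, a span of 0.19. Its 2 probes both gave small responses but took opposite directions between the lines (0.63 and -0.60 untreated), so no direction is read there.

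Hexokinases differed among themselves. HK2, the inducible hexokinase that binds mitochondria, was at -1.68 in untreated and 0.12 in treated RC-K8, and at -1.41 and -1.63 in untreated and treated RC-K8-R. Treated RC-K8 was the only array with an HK2 level above 0, the array's median. The RC-K8 difference was 3.48-fold (log2 1.80, SD between 2 probes 0.09), rank 32 from the top among 13446 genes. HK1, the form found in most tissues, spanned 0.15 over the 4 arrays and was 0.14 higher in treated RC-K8. HK3, a form found in leukocytes, was at 0.32 and 0.15 in RC-K8 but at -0.26 on both RC-K8-R arrays, and both of its probes were lower with IL-21 in RC-K8 (-0.26 and -0.09). HK2 was the one hexokinase of the 3 with a 2-fold difference.

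GPI, which converts the hexokinase product to fructose phosphate, was 0.21 higher in treated RC-K8, from -0.57 to -0.36, and lay at -0.95 and -0.997 in RC-K8-R. The phosphofructokinase subunits, which form the enzyme of the committed step, went different ways. PFKP, the platelet-type subunit, was higher by 0.63 in RC-K8, with levels of -1.88 and -1.25, against -1.94 on both RC-K8-R arrays. PFKM, the muscle-type subunit, was lower by 0.76, with levels of -2.28 and -3.04 in RC-K8, and -1.86 and -2.01 in RC-K8-R. PFKL, the liver-type subunit, differed by -0.04, from probes at -0.09 and 0.02. None of the 3 reached 2-fold with IL-21.

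The enzymes that set the amount of fructose-2,6-bisphosphate, the activator of phosphofructokinase, were not 2-fold different with IL-21. PFKFB4, which makes and degrades it, was 0.57 lower in treated RC-K8 (-3.97 untreated, -4.54 treated) and 0.07 higher in RC-K8-R. PFKFB3, a form that favours its synthesis, had 4 probes, all lower with IL-21 in RC-K8, by 0.06 to 0.47, with a median of -0.16. PFKFB2 was at 1.07 in untreated and 1.59 in treated RC-K8 and at 1.07 in untreated RC-K8-R, and had no value on the treated RC-K8-R array. TIGAR, a p53-inducible phosphatase that removes the activator, was 0.25 higher in RC-K8, from 0.53 to 0.79, and 0.06 lower in RC-K8-R.

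In the middle of the pathway, triosephosphate isomerase TPI1 was 0.51 higher in treated RC-K8, from -1.73 to -1.22, with both probes above 0 (0.62 and 0.41). It was 0.10 higher in RC-K8-R. The aldolases ALDOA and ALDOC, which split the sugar into trioses, differed by 0.10 and -0.01, and the ALDOA probes had opposite signs.

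In the payoff phase, in which ATP is made, ENO1 stood apart. ENO1, the main enolase of non-muscle and non-neuronal cells, was at -2.17 untreated and -0.83 treated in RC-K8, and at -1.97 and -1.99 in RC-K8-R. Treated RC-K8 was again the only array apart from the other 3. The difference was 2.54-fold (log2 1.34, SD between 2 probes 0.12), rank 74 of all genes from the top. The neuronal enolase ENO2 was 0.40 higher, at -3.63 and -3.23, and the muscle enolase ENO3 was 0.19 higher, at -0.79 and -0.60. PGK1, phosphoglycerate kinase, was 0.37 higher as the median of 4 probes that lay between 0.22 and 0.46. PGAM1, phosphoglycerate mutase, was 0.24 higher. GAPDH, the glyceraldehyde phosphate dehydrogenase often used as a reference gene, spanned only 0.15 over the 4 arrays, from -1.27 to -1.12, and the pyruvate kinase PKM differed by 0.02. The RefSeq gene table names 65 pseudogenes after GAPDH, 13 after PGAM1, 6 after LDHA, 5 after PKM and 4 each after ENO1 and TPI1, and binding of such near-identical copies to the probes was not tested.

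At the lactate step, LDHA and LDHB differed. LDHA, the subunit that favours lactate formation, was at -1.496 in untreated and -0.15 in treated RC-K8, and at -1.78 and -1.80 in RC-K8-R. The difference in RC-K8 was 2.53-fold (log2 1.34, SD between 3 probes 0.06), and all 3 probes lay between 1.25 and 1.38. LDHB, the subunit that favours pyruvate formation, was 0.26 higher, at 0.65 and 0.90, on 1 probe. LDHB spanned 0.26 over all 4 arrays, against 1.65 for LDHA.

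Pyruvate dehydrogenase, which commits pyruvate to mitochondrial oxidation, is switched off by the PDK kinases. PDK2, the most widely expressed of these kinases, was at -0.06 in untreated and -1.28 in treated RC-K8, and at 0.24 and 0.09 in RC-K8-R. Treated RC-K8 was the lowest of the 4 arrays, by 2.32-fold against untreated RC-K8, rank 122 from the bottom of all genes, on 1 probe. PDK1, a kinase gene known to be hypoxia-inducible, went the other way and was 1.52-fold higher (log2 0.60, SD between 2 probes 0.02). PDK3 differed by -0.06 from probes of opposite sign. Among the subunits of the enzyme itself, PDHB was 0.55 lower, at 1.12 and 0.57, and PDHA1 was 0.18 higher, at 0.50 and 0.68.

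In the pentose phosphate pathway, PGD, which makes NADPH, was 0.29 higher in treated RC-K8, and TKT, a transketolase of the nonoxidative branch, was 0.36 higher, from -1.09 to -0.73. TALDO1, the transaldolase of that branch, was at -0.08, -0.13, -0.08 and -0.02 on the 4 arrays in the order of the groups. Its 4 probes differed by -0.12 to 0.04. GPD2, the mitochondrial dehydrogenase of the glycerol phosphate shuttle, was at -1.80 on both RC-K8 arrays.

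In RC-K8-R, levels on the treated and untreated arrays lay close together for every measured gene of the pathway but GPD2. Of the 33 genes, 32 lay within 0.5 of 0, a share that was not counted over all genes. None was 2-fold higher, beside 0.342% of all genes. One gene was 2-fold lower, beside 0.602%. The median absolute difference of the 33 genes was 0.05, against 0.11 for all genes, whereas in RC-K8 it was 0.26 against 0.21. HK2 was at -0.21, from probes at -0.26 and -0.16, ENO1 at -0.02 and LDHA at -0.03. PDK2 was at -0.15, and the next largest difference after GPD2 was -0.35 for PDHB, which was also lower in RC-K8.

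GPD2 was at -1.59 in untreated and -4.90 in treated RC-K8-R, a difference of -3.31, the lowest of all 13446 genes in that comparison. The other 3 arrays lay between -1.80 and -1.59. The value rests on 1 probe and 1 array. Among the 1161 genes whose mean level was below -2, as that of GPD2 was through this array, 5.25% were 2-fold lower in the same comparison. No second probe was there to set beside it.

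When the RC-K8 response was subtracted from the RC-K8-R response, the result was 2-fold in the negative direction for 4 of the 33 genes, beside 2.3% of all genes, and in the positive direction for 1, beside 2.47%. It was -2.01 for HK2, -1.36 for ENO1, -1.34 for LDHA, -3.32 for GPD2 and 1.06 for PDK2. All probes of HK2, ENO1 and LDHA gave negative differences, from -2.13 to -1.25. For GPD2 the difference came from RC-K8-R, and for the other 4 genes it came from RC-K8. None of these differences could be tested with 1 array per group.

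**Figure D2:**
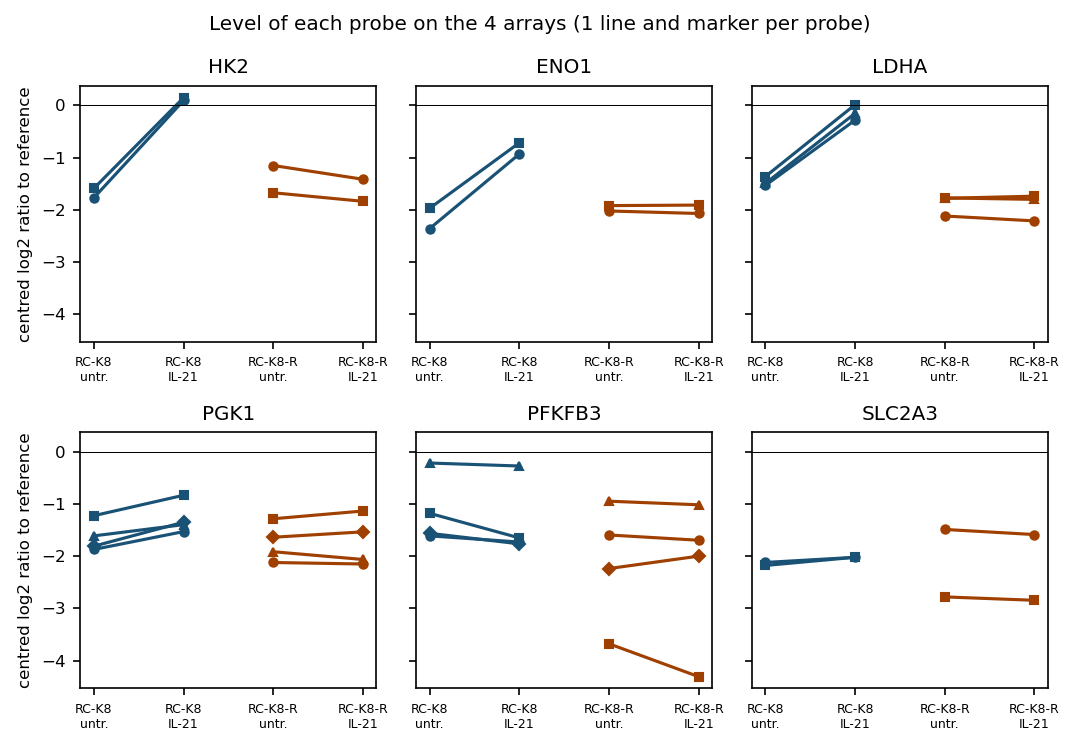
The panels give the level of every probe (vertical axis, centred log2 ratio to the reference) of 6 genes on the 4 arrays (horizontal axis), with 1 line and marker per probe and the lines RC-K8 in blue and RC-K8-R in brown. All probes of HK2, ENO1, LDHA and PGK1 are higher with IL-21 in RC-K8, and the probes of PFKFB3 and SLC2A3 spread apart in RC-K8-R.

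Without IL-21, none of the 33 genes was 2-fold apart between the lines, beside 3.35% of all genes that were higher and 10.2% that were lower in RC-K8-R. The median difference was 0.12, against 0.05 for all genes, and 23 of the 33 (69.7%) lay above 0, as did 53.4% of all genes. That median was 0.29 after quantile normalisation, 0.30 with equal spread of the arrays and 0.33 when each difference was corrected for level. Marker lists of other cell types were lower in untreated RC-K8-R, with median differences of -1.44 for T and NK cells (6 of 7 genes 2-fold lower), -1.02 for epithelial cells, -0.99 for myeloid cells, -0.94 for hepatocytes and -0.87 for fibroblasts, and B cell markers were at 0.71; their part in the differences between the lines was not tested. PDHA1, a subunit of pyruvate dehydrogenase, was the highest at 0.67 (0.50 in RC-K8, 1.17 in RC-K8-R), and PFKFB3 was the lowest at -0.70. The 4 PFKFB3 probes lay at 0.02, -0.68, -0.73 and -2.499, an SD of 1.07, so the size of that difference is unsettled. HK3 was lower by 0.58 on 2 probes, and PDHB by 0.56 on 1. HK2 was at 0.27 from probes of opposite sign, ENO1 at 0.20 and LDHA at -0.42, with its 3 probes between -0.58 and -0.28.

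With IL-21, the lines stood further apart. In RC-K8-R, 4 of the 33 genes were 2-fold lower, beside 10.3% of all genes, and 2 were higher, beside 7.47%, so neither count stands far from the background. B cell markers had a median difference of 1.69 there (6 of 8 genes 2-fold higher) and T and NK cell markers one of -1.29, and their part was not tested either. LDHA was lower by 3.37-fold (log2 -1.75, SD 0.14, 3 probes), HK2 by 3.36-fold (log2 -1.75, SD 0.34, 2 probes), ENO1 by 2.24-fold (log2 -1.17, SD 0.04, 2 probes) and GPD2 by 8.60-fold on 1 probe. ENO1 was no longer 2-fold lower when each difference was corrected for level (-0.80), after quantile normalisation (-0.98) or with equal spread of the arrays (-0.96). PDK2 was higher by 1.37 and PFKM by 1.04, each on 1 probe. PFKFB4 was higher by 0.74, also on 1 probe. It passed 2-fold in 4 of the 8 alternative settings, with the largest value (1.42) when each difference was corrected for level. The median over the 33 genes was -0.12, against -0.03 for all genes, and was above 0 with the correction for level (0.04) and with equal spread (0.04), so no direction is read from it.

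**Figure D3:**
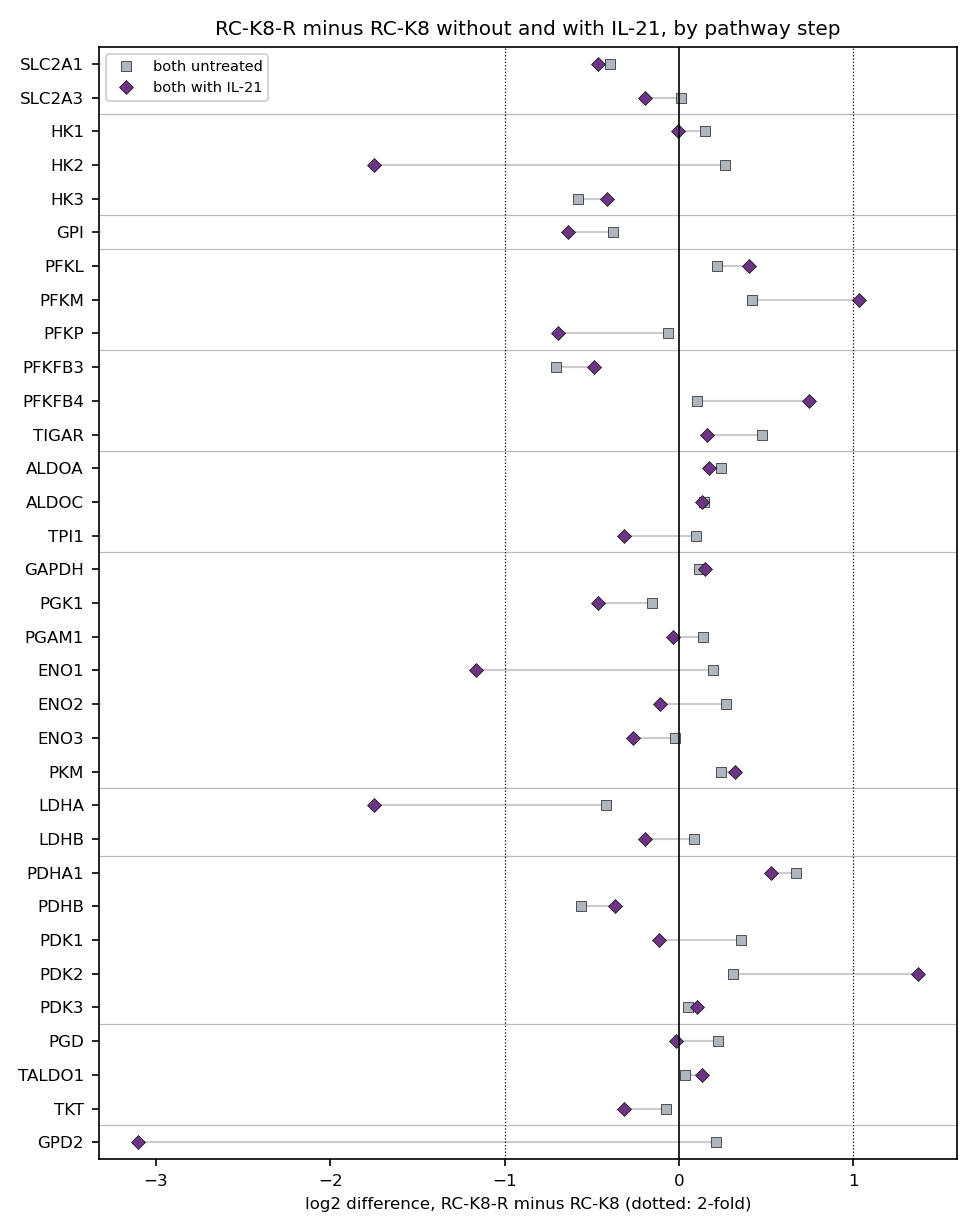
The plot gives the log2 difference of RC-K8-R minus RC-K8 (horizontal axis) for each gene (vertical axis), with both lines untreated (grey squares) and both with IL-21 (purple diamonds), from 1 array per group; dotted lines mark 2-fold. No grey square lies beyond 2-fold, and HK2, ENO1, LDHA and GPD2 lie beyond it on the lower side with IL-21.

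Other genes of glucose metabolism gave a setting for these values. Of 60 further genes listed, among them other transporters, gluconeogenic enzymes and the mitochondrial pyruvate carrier, 42 had values on all arrays. None of the 42 was 2-fold different with IL-21 in RC-K8 or in RC-K8-R, and the median differences were -0.01 and -0.02. Of all genes, 1.44% were higher and 1.66% lower in RC-K8, and 0.342% and 0.602% in RC-K8-R. With 42 genes, none past 2-fold is near these shares. Below that limit, the malic enzyme ME2 was at 0.93 in RC-K8. Further genes of the pentose phosphate pathway lay on both sides of 0, with RPIA at 0.76, RPE at 0.65, DERA at 0.06, H6PD at -0.05, PGLS at -0.23 and TKTL1 at -0.37. ME2 and these genes were chosen for mention after their values were seen. Between the untreated lines, the resistant line had 4 of the 42 at 2-fold lower, close to the 10.2% of all genes: the gluconeogenic FBP1 (-1.66), the transketolase-like TKTL1 (-1.48), the testis-type LDHC (-1.12) and the transporter SLC2A10 (-1.02). With IL-21 there were 5, close to the 10.3% of all genes: FBP1 (-1.34), LDHC (-1.53), PCK2 (-1.17), SLC2A9 (-1.15) and the kinase PDK4 (-1.03). Of 20 citrate cycle enzymes listed, 17 were measured and none was 2-fold different with IL-21 in either line, with a median of -0.06 in RC-K8. Between the lines, IDH1 was lower in untreated RC-K8-R (-1.24), beside 10.2% of all genes. OGDH was higher in RC-K8-R when both had IL-21 (1.16), beside 7.47%. Glycogen and hexosamine genes had no 2-fold difference with IL-21 among 13 measured, and PYGM was lower in untreated RC-K8-R (-1.03), beside 10.2% of all genes. In lists of 17 and 13 genes, none past 2-fold with IL-21 is again near the shares of all genes.

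Among 21 measured regulators of the pathway, MYC and EGLN3 were 2-fold higher with IL-21 in RC-K8, beside 1.44% of all genes. MYC was higher on 2 of its 3 probes (3.02 and 3.74), and the third gave -0.08. The same probes in RC-K8-R gave -0.05, 0.12 and 0.07. EGLN3, a prolyl hydroxylase that marks hypoxia-inducible factors for destruction and is itself hypoxia-inducible, was at -4.18 and -2.44 in RC-K8, and at -3.67 and -4.03 in RC-K8-R. These EGLN3 values rest on 1 probe, which was below -2 on every array. HIF1A, the hypoxia-inducible factor subunit, differed by -0.01 with IL-21 in the parental and -0.08 in the resistant line, and TXNIP, an inhibitor of glucose uptake, by 0.06 and 0.03.

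Between the lines, the regulators PRKAA2 (-1.001) untreated, and EGLN2 (1.33), FOXO1 (1.26), MYC (-2.64) and EGLN3 (-1.59) with IL-21, were 2-fold apart. Untreated, that was 1 of 21 lower in RC-K8-R, beside 10.2% of all genes. With IL-21 it was 2 higher, beside 7.47%, and 2 lower, beside 10.3%, so these counts are near the background. Of 15 other hypoxia-inducible genes measured, none was 2-fold higher in treated RC-K8, beside 1.44% of all genes. With 15 genes, that is near the share of all genes and says little of the group. P4HA2 alone was 2-fold lower (-1.34), beside 1.66% of all genes. The median of the 15 was -0.16, against -0.04 for all genes. Between the untreated lines 1 of the 15, ANKRD37 (1.07), was higher in RC-K8-R, beside 3.35% of all genes. DDIT4 (-1.11), P4HA1 (-1.12) and NDRG1 (-1.04) were lower, 3 of the 15 beside 10.2%. Between the lines with IL-21, P4HA2 (1.499), HILPDA (1.22), KDM3A (1.13) and BNIP3L (1.01) were higher, 4 of the 15 beside 7.47% of all genes. DDIT4 (-1.67), PLOD2 (-1.57), CA12 (-1.19) and ADM (-1.17) were lower, 4 of the 15 beside 10.3%. These counts were not tested. For the IL-21 signal itself, the feedback inhibitor SOCS3 was higher by 3.13 in RC-K8 but by 0.18 in RC-K8-R, and the survival gene BCL2L1 was at -1.67 and 0.34.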

How the data were processed

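RNA from 4 cultures was measured on 2-colour Agilent arrays, with sample cDNA in Cy5 and human reference RNA in Cy3, per the labels. The deposited table holds the authors' log ratios, taken as log2 ratios of sample to reference; log base, centring and direction are not stated in it, and array medians were -0.11, -0.12, -0.11 and -0.11. Direction was taken from the dyes. How background was corrected, arrays normalized and spots filtered is not given in the sources used here.

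Arrays were centred on their medians over the 23260 of 31095 probes with a value on every array. Differences were taken per probe and summarised by the median over a gene's probes. A gene's level is the median over its probes, so differences of levels can depart slightly from it. The platform annotation gave 1 symbol for 25570 probes, several for 28 and none for 5497. The number of arrays limits the precision. With 1 array per group no test was run. The calculation was run on simulated arrays of equal spread with shifts well past 2-fold. That run checks the code and not how far the differences can be trusted. All listed pathway genes with a value were named, as were genes of the other metabolic, regulator and hypoxia lists at 2-fold; MYC, HIF1A, TXNIP, SOCS3 and BCL2L1 were named whatever their value, and marker lists are given as medians and counts. Members and lists were chosen with earlier results of these data known. Python 3.11.15, pandas 2.3.3 and statsmodels 0.14.6 were used.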

Additional observations from a re-analysis of the deposited data

Results flagged for a closer look

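The IL-21 response had opposite signs in the 2 lines and differed by 2-fold or more for 4 of the 33 genes. The share of all genes that met this rule was not counted, and the difference was not tested. HK2 alone of the 4 kept opposite signs under every alternative that gave a value per gene. Over these, ENO1 in RC-K8-R lay between -0.03 and 0.04, LDHA in RC-K8-R between -0.04 and 0.04, and GPD2 in RC-K8 between -0.005 and 0.14. The response of RC-K8-R minus that of RC-K8 was -2.01 for HK2 (1.80 in the parental line, -0.21 in the resistant one). It was -1.36 for ENO1 (1.34 and -0.02) and -1.34 for LDHA (1.34 and -0.03). GPD2 differed by -3.32, with 0.004 in RC-K8 against -3.31 in RC-K8-R, on 1 probe.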

How the results depend on the processing

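No alternative turned a gene that was 2-fold different to the other direction. HK2, ENO1, LDHA and PDK2 in RC-K8 and GPD2 in RC-K8-R stayed past 2-fold under all 8 settings that gave a value per gene, with ranges of 1.79 to 2.60, 1.26 to 1.94, 1.32 to 1.93, -1.75 to -1.19 and -4.78 to -2.92. A natural log reading gave the largest of these values. Counts with every probe as its own feature were 7 higher in RC-K8, 8 lower in the difference of responses, 1 lower between untreated lines and 9 lower between treated lines. The 7 were the probes of HK2, ENO1 and LDHA, and the 8 were these with GPD2, so no further gene was added there. The 1 was a probe of PFKFB3, which was also among the 9. At 1.5-fold there were 5 higher and 2 lower in RC-K8, 3 higher in the difference of responses, and 1 higher and 1 lower between untreated lines. At 3-fold there were 1 higher and 0 lower in RC-K8, 0 higher and 2 lower in the difference of responses, and 0 higher between treated lines. With at least 2 probes in 1 direction required, which leaves out PDK2, PFKM and GPD2, there were 0 lower in either line, 0 higher in the difference of responses and 0 higher between treated lines. A natural log reading gave 2 lower in RC-K8 and 1 lower between untreated lines, and quantile normalisation gave 1 higher between untreated lines. The cause was not tested. The share of all genes was not counted under any of these alternatives, so these counts are not set beside a background. Over the settings, the median difference of the listed genes ranged from 0.17 to 0.26 in RC-K8, -0.01 to 0.03 in RC-K8-R, -0.25 to -0.17 for the difference of responses, 0.05 to 0.33 between untreated lines and -0.21 to 0.04 between treated lines. No paired analysis was possible because each group has 1 array, and for the same reason no array could be left out.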
